A study of Mus musculus with 6 samples.

Results

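Tubulin isotypes are the alpha, beta and gamma tubulin genes read here in newborn mouse retinas with and without cyclin D1. The genes were chosen by name, as 9 isotypes that are either enriched in neurons (Tuba1a, Tubb2a, Tubb2b, Tubb3) or broadly expressed (Tuba1b, Tuba1c, Tubb5, Tubb6, Tubg1), and every probe set annotated to a single gene symbol among them was taken. Of the 9, 7 had such a probe set, 10 probe sets in all, out of 18193 genes and 34945 probe sets so annotated. Tuba1b and Tuba1c had none and are not reported. All 7 isotypes and all 10 probe sets were bright enough to be tested. Tubb6 was put in the group because it was among the largest falls of the same comparison, so its difference is given as a description without a test.

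Retinas came from Cyclin D1 -/- and from wildtype neonates, both taken at birth, with 3 numbered pools of dissected retinas per genotype and 1 Affymetrix array per pool. Cyclin D1, the product of Ccnd1, partners the kinases that drive cells out of G1. The submitters' stated question was in which direction genes bound by cyclin D1 change once the protein is missing. The strain, the design of the null allele, the number of neonates in a pool and whether pools shared litters are not given in the labels, and p-values cover only the spread from pool to pool. In pools of whole retinas, fewer cells of a type and less RNA per cell cannot be told apart.

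Microtubules are hollow polymers of alpha and beta tubulin dimers, and gamma tubulin starts new ones at centrosomes. A dividing cell rebuilds them into a spindle, and a young neuron fills its axon and dendrites with them. Vertebrates carry several alpha and beta genes whose proteins are very similar and differ most at the acidic tail. Tubb3 is the beta isotype widely used as a marker of young neurons, Tuba1a and Tubb2b are prominent in the developing nervous system, and Tubb5 is made in most cell types, dividing ones included.

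The median deposited signal ran from 44.5 to 49.5 units on the Cyclin D1 -/- arrays and from 40.6 to 50.5 on the wildtype arrays, and precision is limited by how few arrays there are. Levels below are log2 of the quantile normalised signal plus 16, differences are Cyclin D1 -/- minus wildtype, and a gene was called at a limma adjusted p below 0.1, the rate named in the labels. All 3 Ccnd1 probe sets were lower in the Cyclin D1 -/- pools, by log2 differences of -4.24 to -3.59. In each genotype, pools 1 and 2 resembled each other more closely (SD of the log2 difference between arrays 0.21 for Cyclin D1 -/- and 0.22 for wildtype) than any other pair of arrays (0.28 to 0.52). Spiked BioB and BioC controls were brighter on Cyclin D1 -/- pools 1 and 2 and wildtype pool 3 than on the other arrays, and differences within these 2 sets of arrays are given beside the results. Each such difference rests on 1 array for 1 of the genotypes. That array was wildtype pool 3 in the set with brighter controls and Cyclin D1 -/- pool 3 in the other. Of the marker lists for the dissected tissue, 6 of 7 retinal progenitor and 9 of 10 postmitotic retinal neuron genes had a probe set, and all of those were bright enough to be tested. The progenitor markers had 1 gene called higher and 2 lower, a median difference of -0.06 and a summed signal of 3569 to 3788 units in Cyclin D1 -/- pools and 3977 to 4217 in wildtype pools, which do not overlap. Among all tested genes, 2.03% were called higher and 2.63% lower. Without wildtype pool 3 the number of called genes rose from 509 to 1944, and leaving out any other pool gave between 179 and 336.

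Of the 6 isotypes other than Tubb6, none passed the test in either direction, where 4.66% of all 10916 tested genes did. The submitters' error model also called none of these 6. For 1 of the 6, Tuba1a, normalisation gave the same value in every pool, so it could not enter any count here. In the values as deposited Tuba1a was not called either (limma adjusted p = 0.965). At an unadjusted p below 0.05, 2 of the 6 were higher in the Cyclin D1 -/- pools (Tubb2a and Tubb2b) and 1 was lower (Tubb5), beside 6.68% of all tested genes higher and 6.84% lower (13.5% in either direction). Among the neuron-enriched isotypes, the 3 that could be compared (Tubb2a, Tubb2b and Tubb3) had a median log2 difference of 0.26, which is 0.17 with Tuba1a counted at the 0.00 that normalisation fixed for it, as described below. The broadly expressed isotypes had a median of -0.21, or -0.20 over Tubb5 and Tubg1 alone, against 0.02 over all tested genes. In the values as deposited, where the median of all genes was 0.13, the medians without Tuba1a and Tubb6 were 0.32 and -0.14, and with arrays centred on their medians 0.22 and -0.23. Averaging the probe sets of each gene gave medians of 0.15 for Tubb2a, Tubb2b and Tubb3 and -0.26 for Tubb5 and Tubg1. The 0.15 was the lowest such median for the neuron-enriched isotypes among 20 alternatives. It includes the second Tubb2a probe set, whose difference was -0.01. No test of the contrast between these small groups was made.

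**Figure D1:**
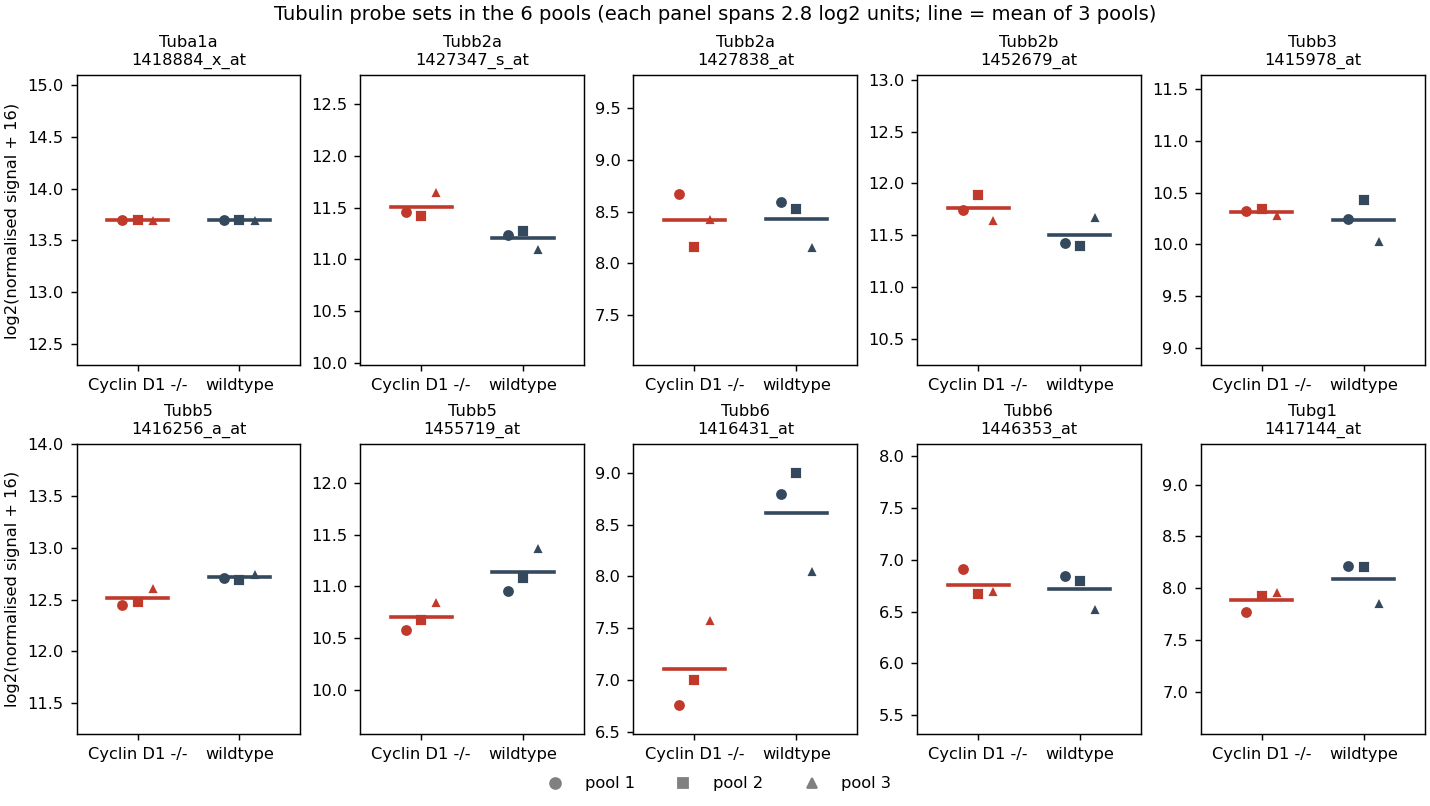
Level of each of the 10 tubulin probe sets in every pool, as log2(normalised signal + 16), with Cyclin D1 -/- pools left and wildtype pools right in each panel; lines are means of 3 pools and all panels span 2.8 log2 units. Tubb6 1416431_at is the panel with the widest gap, while its other probe set, 1446353_at, overlaps between genotypes.

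Tuba1a, the alpha isotype prominent in young neurons, gave a signal near the top of every array. Its probe set ranked 2 among all probe sets that were not controls on each of the 6 arrays, so quantile normalisation gave it 1 and the same value (13.69) everywhere and the normalised difference of 0.00 carries no information. The deposited signals were 12995, 12989 and 13596 units in Cyclin D1 -/- pools 1 to 3 and 13563, 13195 and 12985 units in wildtype pools 1 to 3. The 2 genotypes overlapped fully, with a log2 difference of -0.01 in the deposited values. Signals this close to the array maximum (15945 to 17527 units in Cyclin D1 -/- pools and 16794 to 17312 in wildtype pools) leave little room to read a difference upward. The name of this probe set ends in _x_at, which in the Affymetrix scheme marks probes that can bind other transcripts.

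Tubb2a and Tubb2b, neighbouring beta isotype genes on chromosome 13, showed the largest positive differences among the isotypes without passing the test. The brighter Tubb2a probe set (1427347_s_at) read 11.46, 11.41 and 11.65 in Cyclin D1 -/- pools 1 to 3 and 11.24, 11.28 and 11.10 in wildtype pools 1 to 3. Every Cyclin D1 -/- pool lay above every wildtype pool, as was the case for 10.5% of all tested genes. The difference was 0.30 (95% interval 0.11 to 0.49, limma adjusted p = 0.124), from means of 11.51 ± 0.13 in Cyclin D1 -/- and 11.20 ± 0.09 in wildtype pools (SD, n = 3 each), and 0.33 and 0.39 within the sets of arrays with brighter and dimmer controls. It was called in 3 of 20 alternatives: the values as deposited (0.39, adjusted p = 0.0652), the array set as a block (0.36, adjusted p = 0.0151) and the omission of wildtype pool 3 (0.25, adjusted p = 0.0917). In the other 17 it was not called, among them pools 1 and 2 averaged within each genotype (0.36, adjusted p = 0.497) and the mean of both Tubb2a probe sets (0.15, adjusted p = 0.718). The other Tubb2a probe set (1427838_at) read 8.67, 8.16 and 8.42 in Cyclin D1 -/- pools and 8.60, 8.53 and 8.16 in wildtype pools. Those groups overlapped, with a difference of -0.01 (95% interval -0.39 to 0.37). The ending _s_at marks a set whose probes can bind several transcripts, so how much of its signal is Tubb2a is uncertain.

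Tubb2b, a beta isotype of migrating and growing neurons, read 11.75, 11.89 and 11.65 in Cyclin D1 -/- pools and 11.42, 11.39 and 11.68 in wildtype pools. The groups overlapped because wildtype pool 3 lay above Cyclin D1 -/- pool 3, though below the other Cyclin D1 -/- pools. The difference was 0.26 (95% interval 0.04 to 0.48, limma adjusted p = 0.258), from means of 11.76 ± 0.12 in Cyclin D1 -/- and 11.50 ± 0.15 in wildtype pools. Without wildtype pool 3 it was 0.35 and was called (adjusted p = 0.0303), a setting in which 1944 of all 10916 tested genes were called. Tubb2b was not called in the other 19 of 20 alternatives. Within the sets of arrays its difference was 0.14 and 0.24, brighter controls first.

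Tubb3, the neuronal marker, read 10.32, 10.34 and 10.29 in Cyclin D1 -/- pools and 10.24, 10.43 and 10.03 in wildtype pools. The Cyclin D1 -/- pools were nearly equal and sat inside the range of the wildtype pools. The difference was 0.08 (95% interval -0.16 to 0.32, limma adjusted p = 0.882), within the spread between wildtype pools (SD 0.20, n = 3). It turned to -0.02 without wildtype pool 3, and within the sets of arrays it was 0.30 and -0.05, brighter controls first. The 9 measured markers of postmitotic retinal neurons had a median difference of 0.34, with 4 called higher and 1 lower. Among all tested genes, 2.03% were called higher and 2.63% lower. The summed signal of the 9 markers was 6909 to 6955 units in Cyclin D1 -/- pools and 5058 to 5277 in wildtype pools. The marker called lower, Tfap2b, read 7.262, 7.691 and 7.77 in Cyclin D1 -/- pools and 8.893, 9.046 and 9.505 in wildtype pools. Whether the marker list and Tubb3 differ from each other was not tested.

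Tubb5, the widely made beta isotype, lay lower in the Cyclin D1 -/- pools in both of its probe sets, without passing the test in either. The brighter set (1416256_a_at) read 12.45, 12.48 and 12.61 in Cyclin D1 -/- pools and 12.71, 12.69 and 12.75 in wildtype pools. The other set (1455719_at) read 10.58, 10.67 and 10.85 in Cyclin D1 -/- pools and 10.96, 11.08 and 11.37 in wildtype pools. In both sets no Cyclin D1 -/- pool reached a wildtype pool, which held for 9.48% of all tested genes in that direction. The differences were -0.20 (95% interval -0.33 to -0.07, limma adjusted p = 0.147) and -0.43 (95% interval -0.70 to -0.17, limma adjusted p = 0.112 over probe sets, where 4.44% of 17206 tested probe sets were called). The brighter set was called without Cyclin D1 -/- pool 3 (-0.25, adjusted p = 0.0794), where 336 of all 10916 tested genes were called. Tubb5 was not called in the other 19 of 20 alternatives. Within the sets of arrays the difference of the brighter probe set was -0.28 and -0.08 and that of the other probe set -0.74 and -0.17, brighter controls first.

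**Figure D2:**
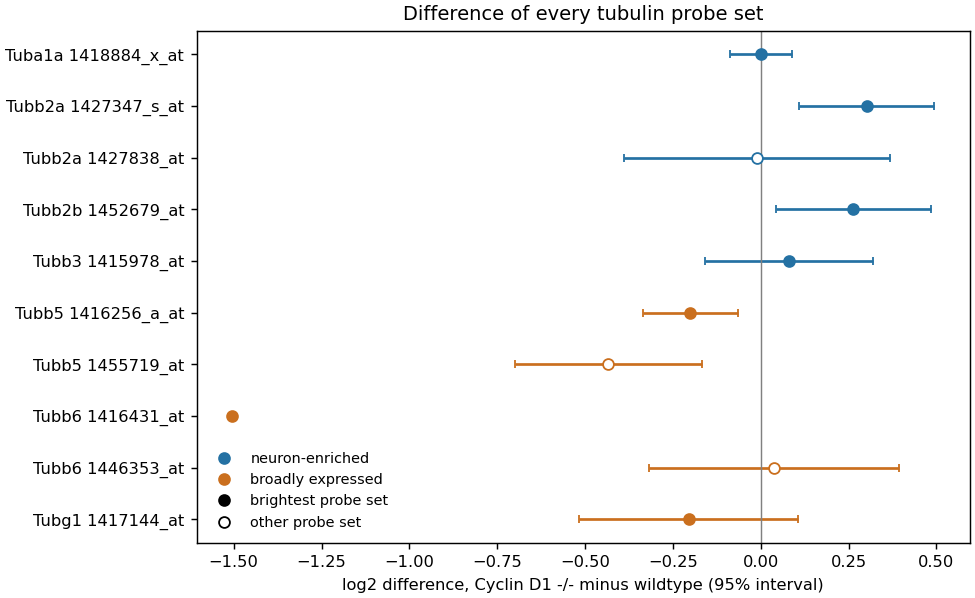
Log2 difference, Cyclin D1 -/- minus wildtype, of each tubulin probe set with its 95% interval from limma; blue marks neuron-enriched and orange broadly expressed isotypes, and filled points the brightest probe set of a gene. Tubb6 1416431_at lies at -1.50, shown without an interval because it was picked for this difference, and every other point lies between -0.43 and 0.30.

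Tubb6, a broadly expressed beta isotype, had the widest difference, the one for which it was picked. The deposited signal of 1416431_at was 94.2, 119.8 and 178.4 units in Cyclin D1 -/- pools 1 to 3 and 418.3, 449.2 and 233.8 units in wildtype pools 1 to 3. On the log2 scale these were 6.76, 6.99 and 7.57 in Cyclin D1 -/- pools and 8.79, 8.99 and 8.05 in wildtype pools, so the groups did not overlap but pool 3 of each genotype lay nearest the other genotype. The mean was 7.11 ± 0.42 in Cyclin D1 -/- and 8.61 ± 0.50 in wildtype pools (SD, n = 3 each), a difference of -1.50, 2.84-fold lower in Cyclin D1 -/- pools and number 8 among the falls of 10916 tested genes. Within the sets of arrays the difference was -1.18 and -1.32, brighter controls first. Leaving out single pools gave differences from -1.80 (without wildtype pool 3) to -1.32 (without wildtype pool 2), and averaging pools 1 and 2 within each genotype gave -1.25.

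The second Tubb6 probe set did not share the fall. This set, 1446353_at read 6.91, 6.67 and 6.70 in Cyclin D1 -/- pools and 6.85, 6.80 and 6.52 in wildtype pools. The groups overlapped, with a difference of 0.04 (95% interval -0.32 to 0.39). Its signal was not far above the intensity filter of 6.21 in any pool. With both probe sets averaged, the Tubb6 difference was -0.73.

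The 5 tested genes whose pattern over the 6 pools lay nearest that of Tubb6 1416431_at were Cenpp, Crabp1, Melk, Cdc25c and Cenpf. Likeness was the root mean square distance between log2 signals centred on the mean of the 6 pools, and these 5 had distances of 0.16 to 0.20 among 10915 genes compared. Their own differences ran from -1.72 for Crabp1 to -1.17 for Melk, and the measure contains the genotype difference for which Tubb6 was picked. All 9 measured dividing-cell markers were called lower, beside 2.63% of all tested genes. The summed signal of these markers was 2093 to 2589 units in Cyclin D1 -/- pools and 4889 to 5340 in wildtype pools. Their part in the Tubb6 value was not tested. For Tubb3 the nearest genes were Pkdcc, Timm44, Pigyl, Kdelr1 and Mrpl39 (distances 0.02 to 0.03), none of which differed by more than 0.11.

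**Figure D3:**
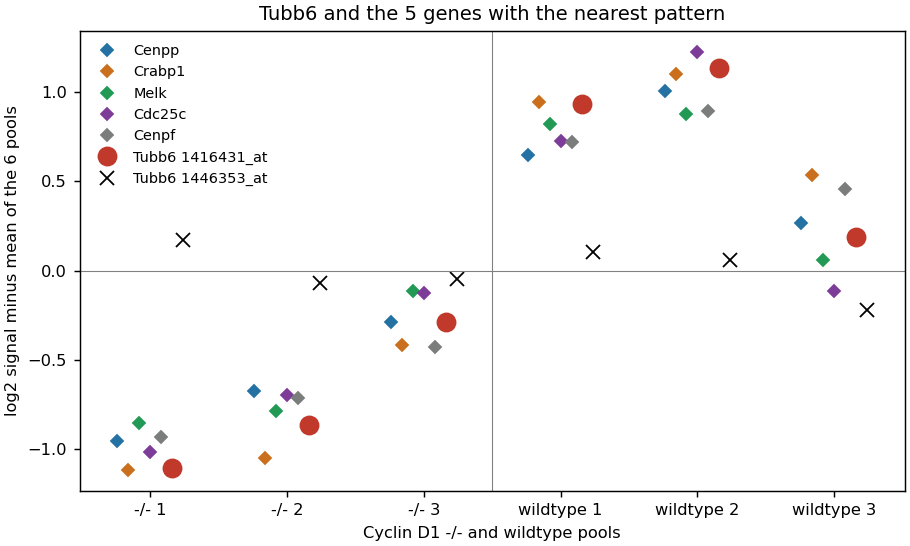
Log2 signal minus the mean of the 6 pools for both Tubb6 probe sets and the 5 genes nearest to Tubb6 1416431_at, with Cyclin D1 -/- pools left of the vertical line and wildtype pools right of it. Tubb6 1416431_at and its nearest genes sit low in Cyclin D1 -/- pools 1 and 2 and high in wildtype pools 1 and 2, with pool 3 of each genotype between, while 1446353_at stays close to 0.

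Tubg1, the gamma tubulin that nucleates microtubules at the centrosome, read 7.76, 7.93 and 7.96 in Cyclin D1 -/- pools and 8.22, 8.20 and 7.85 in wildtype pools. Wildtype pool 3 lay among the Cyclin D1 -/- pools, so the groups overlapped. The difference was -0.21 (95% interval -0.52 to 0.11, limma adjusted p = 0.645), and it was -0.01 and -0.25 within the sets of arrays, brighter controls first. Without wildtype pool 3 it was -0.33 and was called (adjusted p = 0.0762). In that setting 1944 of all 10916 tested genes were called. Tubg1 was not called in the other 19 of 20 alternatives.

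The isotype genes are partly clustered and their start regions differ. Tuba1b, Tuba1a and Tuba1c follow each other among the protein-coding genes of chromosome 15, as Tubb2a and Tubb2b do on chromosome 13. RefSeq start regions of build GRCm38.p6, from 250 bases before to 50 after the gene start, were at hand for 6 of the 9 isotypes. The letters TATAA, searched on both strands, were found in those of Tubb3, Tubb2a and Tuba1a and in none of those of Tubb5, Tuba1b and Tuba1c, and 24.9% of 32851 start regions of the same length held them. In Tubb2a and Tubb3 the letters began 29 and 30 bases upstream of the start on the gene's own strand. Between 40 and 20 bases upstream they began in 3.52% of all start regions. In Tuba1a they began 78 bases upstream. CCAAT, searched the same way, was found in 37.4% of all start regions and in those of Tubb3, Tuba1a, Tuba1c and Tubb5, and it did not overlap TATAA there. Further runs of letters were searched the same way. GGGCGG was found in the start regions of Tubb3, Tubb2a, Tuba1b, Tuba1a and Tubb5 and in 35.7% of all. CACGTG was found in that of Tubb5 alone and in 7.15% of all. TTTGAA was found in none of the 6 and in 17.9% of all. The start regions of Tubb2a, Tubb3, Tuba1a and Tubb5 are shown because they belong to measured isotypes of both kinds, with TATAA or its reverse complement in capitals:
Tubb2a (chr13:34077959-34078258, minus strand): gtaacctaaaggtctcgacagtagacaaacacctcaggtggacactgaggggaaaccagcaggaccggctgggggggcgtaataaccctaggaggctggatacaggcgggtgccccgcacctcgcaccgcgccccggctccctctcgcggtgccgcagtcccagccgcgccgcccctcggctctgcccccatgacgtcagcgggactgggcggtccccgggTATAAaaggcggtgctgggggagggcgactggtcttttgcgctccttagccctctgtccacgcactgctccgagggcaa
Tubb3 (chr8:123411303-123411602, plus strand): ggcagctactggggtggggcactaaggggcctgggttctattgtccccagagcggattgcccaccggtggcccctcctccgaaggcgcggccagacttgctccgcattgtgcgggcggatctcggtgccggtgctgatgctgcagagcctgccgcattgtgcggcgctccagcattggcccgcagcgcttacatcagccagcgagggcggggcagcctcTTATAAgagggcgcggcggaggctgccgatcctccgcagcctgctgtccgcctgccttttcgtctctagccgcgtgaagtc
Tuba1a (chr15:98953452-98953751, minus strand): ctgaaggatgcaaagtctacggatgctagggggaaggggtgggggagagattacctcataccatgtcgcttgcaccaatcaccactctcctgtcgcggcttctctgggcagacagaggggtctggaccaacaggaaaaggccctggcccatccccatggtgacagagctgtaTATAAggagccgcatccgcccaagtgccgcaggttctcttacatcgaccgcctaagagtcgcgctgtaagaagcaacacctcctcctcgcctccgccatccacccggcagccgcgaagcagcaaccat
Tubb5 (chr17:35838252-35838551, minus strand): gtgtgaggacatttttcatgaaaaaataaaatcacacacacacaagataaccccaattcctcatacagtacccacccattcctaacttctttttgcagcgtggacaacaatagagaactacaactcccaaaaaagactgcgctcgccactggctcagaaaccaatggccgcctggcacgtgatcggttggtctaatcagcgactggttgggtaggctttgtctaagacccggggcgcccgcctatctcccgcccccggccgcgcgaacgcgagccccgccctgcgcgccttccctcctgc
A match is a run of letters and not a measured binding site, and the data here do not bear on which factors act at these starts.

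The other genes of the microtubule system were read from lists written by role. From 5 such lists, 111 genes in all, 105 had a probe set and 96 were tested. Of the 96, 1 rose (1.04%, beside 2.03% of all tested genes) and 3 fell (3.12%, beside 2.63% of all tested genes), and the median difference was -0.01 against 0.02 over all tested genes. The counts were 6 and 15 without wildtype pool 3, 6 and 6 in a fit blocked on the array set, and 0 and 0 once pools 1 and 2 had been averaged within each genotype. Over all 10916 tested genes the main fit called 222 higher and 287 lower. The same alternatives called 865 and 1079, 597 and 433, and 17 and 26 of all tested genes, in that order.

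None of 8 further tubulins (Tuba3b, Tuba4a, Tuba8, Tubb1, Tubb4a, Tubb4b, Tube1 and Tubg2) passed the limma test. Their differences ran from -0.45 for Tubb4b to 0.32 for Tubb4a, with a median of 0.04. At an unadjusted p below 0.05, 1 of the 8 was lower, beside 6.84% of all tested genes. The submitters' error model called 0. None of 21 tubulin folding genes passed the limma test either, a list that holds the chaperonin containing Tcp1, prefoldin and the tubulin cofactors. The differences of these 21 ran from -0.22 to 0.34 with a median of -0.01. At an unadjusted p below 0.05, 1 of the 21 was higher, beside 6.68% of all tested genes. The submitters' error model called 0 here too.

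Among 20 tested genes of gamma-tubulin complexes and microtubule nucleation, Tpx2 fell and none rose, with a list median of -0.21. The counts were 10 lower and none higher without wildtype pool 3, 4 lower and 1 higher in a fit blocked on the array set, and 0 lower with pools 1 and 2 averaged. Of all 10916 tested genes, 1079 were called lower and 865 higher without wildtype pool 3. With the array set as a block, 433 were lower and 597 higher, and with averaged pools 26 were lower. Tpx2, a spindle assembly factor that activates Aurora A, read 7.43, 7.57 and 7.59 in Cyclin D1 -/- pools and 8.49, 8.47 and 8.25 in wildtype pools. The groups did not overlap, and the level was 1.83-fold lower in Cyclin D1 -/- pools (limma log2 difference -0.87 with an SE of 0.12, adjusted p = 0.00801). A second Tpx2 probe set differed by -1.15 and a further pair by 0.22 and 0.03. The call was lost with pools 1 and 2 averaged (-0.82, adjusted p = 0.245). At an unadjusted p below 0.05, 6 of the 20 were lower and none higher, beside 6.84% of all tested genes lower, and in 6 of the 20 every Cyclin D1 -/- pool lay below every wildtype pool, beside 9.48% of all tested genes. Tpx2 belongs to the spindle genes of dividing cells, whose markers fell as given above, and their part in this median was not tested.

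Of 27 microtubule-associated and tubulin-binding proteins, 1 rose and 1 fell, and both were stathmins, small proteins that bind tubulin dimers. Stmn2, the stathmin of growing axons, read 10.43, 10.40 and 10.35 in Cyclin D1 -/- pools and 9.97, 9.90 and 9.92 in wildtype pools. It rose 1.38-fold (limma log2 difference 0.46 with an SE of 0.07, adjusted p = 0.0108), its other probe set by 0.72, and it is also on the list of neuron markers. Stmn1, the stathmin common in dividing and young cells, read 12.64, 12.64 and 12.57 in Cyclin D1 -/- pools and 12.78, 12.82 and 12.94 in wildtype pools. It fell 1.17-fold (limma log2 difference -0.23 with an SE of 0.06, adjusted p = 0.0921), its other probe set by 0.43 on the log2 scale. The Stmn1 call was lost in 12 of 20 alternatives, among them the replicate number as a block (adjusted p = 0.187) and the omission of any 1 pool except wildtype pool 3 (adjusted p = 0.129 to 0.310). The Stmn2 call was lost in 2 of 20, the submitters' error model and averaged pools (adjusted p = 0.184 and 0.276). The list's median difference was 0.01. At an unadjusted p below 0.05, 5 of the 27 were higher and 1 lower, beside 6.68% and 6.84% of all tested genes. In 6 of the 27 every Cyclin D1 -/- pool lay above every wildtype pool, beside 10.5% of all tested genes. In 1 every Cyclin D1 -/- pool lay below, beside 9.48%. Without wildtype pool 3 the list had 3 called higher and 2 lower. In that setting 865 of all 10916 tested genes were called higher and 1079 lower.

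Of 20 tested tubulin-modifying and severing enzymes, Fignl1 fell and none rose, with a list median of 0.11. At an unadjusted p below 0.05, 2 were higher and 1 lower, beside 6.68% and 6.84% of all tested genes. Without wildtype pool 3, 1 of the 20 was called higher and 2 lower, beside 865 and 1079 of all 10916 tested genes. Fignl1, an ATPase related to the severing enzyme fidgetin and also known from DNA repair, read 7.18, 7.06 and 7.29 in Cyclin D1 -/- pools and 8.22, 8.19 and 8.05 in wildtype pools. It fell 1.97-fold (limma log2 difference -0.98 with an SE of 0.12, adjusted p = 0.00608), and its call was lost with probe sets averaged (-0.40, adjusted p = 0.184) and with averaged pools (-0.92, adjusted p = 0.208).

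**Figure D4:**
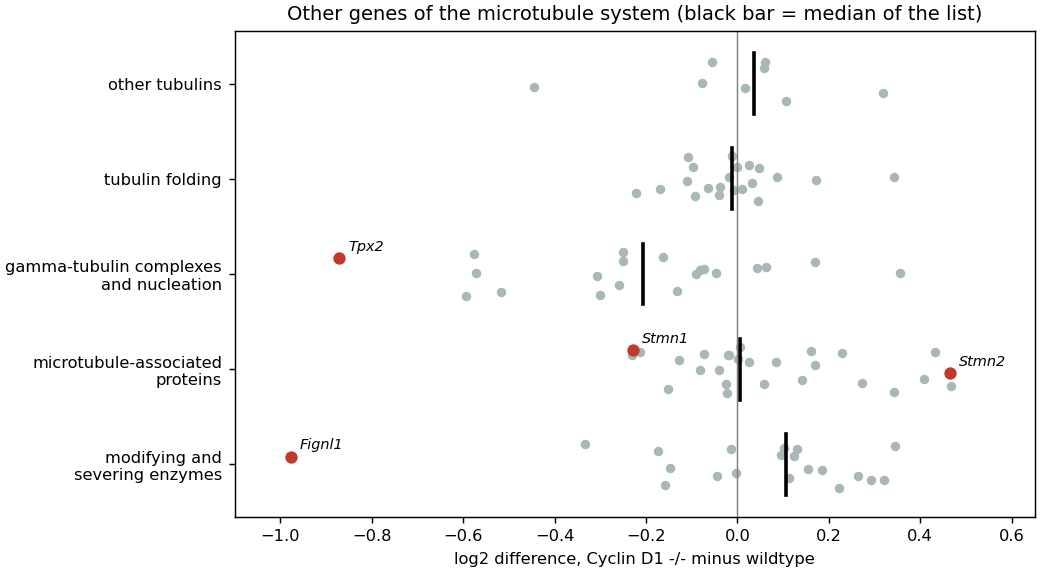
Log2 difference, Cyclin D1 -/- minus wildtype, of the 96 tested genes of the microtubule system in 5 lists; each point is a gene, red points were called at a limma adjusted p below 0.1, and black bars are list medians. The 4 called genes are Tpx2, Stmn1, Stmn2 and Fignl1, and the list medians lie between -0.21 and 0.11.

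Markers of tissue next to the retina also differed between the pools. All 9 lens markers were tested and 6 were called higher. Among all tested genes, 2.03% were called higher and 2.63% lower. The summed signal of the lens markers was 16980 to 43680 units in Cyclin D1 -/- pools and 2274 to 5935 in wildtype pools. Mesenchyme markers (6 of 7 with a probe set, 5 tested, 1 called higher) summed to 555 to 2454 units in Cyclin D1 -/- pools and 416 to 467 in wildtype pools, with Cyclin D1 -/- pool 3 near the wildtype level. Pigment epithelium markers summed to 1188 to 1404 units in Cyclin D1 -/- pools and 945 to 1351 in wildtype pools, with Rpe65 and Mlana too dim to test and 1 of the 5 tested genes called lower. Endothelium and pericyte markers summed to 1351 to 1407 units in Cyclin D1 -/- pools and 1338 to 1428 in wildtype pools, with Pecam1, Cdh5, Tie1 and Pdgfrb too dim. The brightest of the 3 tested, Kdr, read 10.045 to 10.145 in Cyclin D1 -/- pools and 10.08 to 10.145 in wildtype pools. Cldn5 read 6.252 to 6.61 in Cyclin D1 -/- pools and 6.792 to 7.568 in wildtype pools. Rgs5 went the other way, with 6.986 to 7.331 in Cyclin D1 -/- pools and 6.182 to 6.699 in wildtype pools. Microglia and macrophage markers summed to 448 to 468 units in Cyclin D1 -/- pools and 426 to 530 in wildtype pools (2 of 7 tested), astrocyte markers to 326 to 355 units in Cyclin D1 -/- pools and 247 to 294 in wildtype pools, and the 3 measured red blood cell markers were all too dim to test. The part of these cells in the Tubb2a, Tubb2b, Tubb5 and Tubb6 values was not tested.

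**Figure D5:**
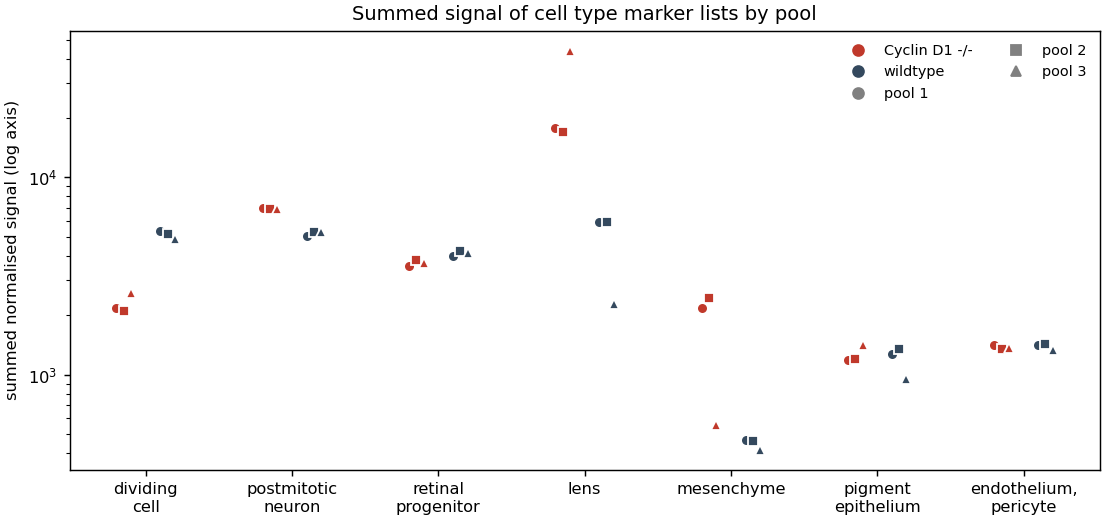
Summed normalised signal of marker lists in each pool on a log axis, Cyclin D1 -/- pools left and wildtype pools right of each position. The sum of the dividing-cell markers lies lower and those of the neuron, lens and mesenchyme markers higher in the Cyclin D1 -/- pools, with lens markers at 43680 units in Cyclin D1 -/- pool 3. The neuron list also holds Tfap2b, which was lower in the Cyclin D1 -/- pools.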

How the data were processed

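Per the labels, RNA of pooled newborn mouse retinas was column-purified, amplified in 1 round, biotinylated and hybridised to Affymetrix arrays, 3 per genotype. The authors deposited 1 linear intensity per probe set and array; no source used here gives the summary program, scaling or genome build. Of 45101 probe sets, 64 controls were left out, 34945 had 1 gene symbol, 932 several (7 of them with a tubulin symbol, not used) and 9160 were unnamed. Symbols of 34741 were updated through Entrez identifiers with RefSeq names of GRCm38.p6.

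Array medians differed by more than 0.1 on the log2 scale, so intensities were quantile normalised, floored at 1 and taken to log2(value + 16), which understates changes of dim genes. Each gene was its probe set with the highest mean, and 7277 genes, the dimmest 40%, stayed untested. limma 3.58.1 (R 4.3.3) was run on the other 10916 (intensity trend, no covariate, two-sided, Benjamini-Hochberg over all genes). A second fit covered the 17206 probe sets above the same intensity. The main limma fit and the submitters' error model were run on simulated data with independent noise in each pool. Such data cannot show how they behave if pools are not independent. The labels describe the NIA Array Analysis tool with an error model of the larger of average (window of 200) and Bayesian variance (5 degrees of freedom), written anew here as an alternative. Other alternatives covered scaling, pseudocount, filter, probe set, variance model, threshold, blocks and left-out or averaged pools. The members and gene lists were chosen with earlier results of these data known. Genes were named as all members, up to 4 called genes with the smallest p per list, and the 5 nearest to Tubb6 and Tubb3. Tubb4a, Tubb4b, Tfap2b, Kdr, Cldn5 and Rgs5 were named after their values were seen. Figures were drawn with matplotlib 3.10.9.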

Additional observations from a re-analysis of the deposited data

How the results depend on the processing

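Over 20 alternatives, isotypes higher in Cyclin D1 -/- pools, 0 as reported, numbered 1 with values as deposited and 1 with the array set as a block, and 0 to 2 when single pools were left out (2 without wildtype pool 3). Isotypes past the threshold and lower number 1 with Tubb6 counted, which was picked for that fall, so nothing is read from this count; it was 0 under the replicate block and 0 with pools 1 and 2 averaged, and 0 to 2 when single pools were left out. Genes of the related lists higher, 1 as reported, numbered 5 with values as deposited, 2 with the probe set of largest difference, 2 with the mean of probe sets, 0 with the submitters' error model, 6 with the array set as a block and 0 with averaged pools; those lower, 3 as reported, numbered 6 with the array set as a block and 0 with averaged pools. Leaving out single pools gave 1 to 6 higher and 2 to 15 lower, the top of both without wildtype pool 3. Over all tested genes, 865 were called higher and 1079 lower without wildtype pool 3. With the array set as a block these counts were 597 and 433, and with values as deposited 416 and 176, against 222 and 287 as reported. The Tubb3 difference, 0.08 as reported, ran from -0.0215 without wildtype pool 3 to 0.27 in the values as deposited, and reached 0.18 at most among left-out pools (without wildtype pool 2); the causes were not tested. Deviations of same-numbered pools correlated at 0.17, -0.35 and -0.48, and not every pool correlated best with its own number. So few correlations cannot settle whether the replicate numbers pair the pools. A replicate block gave 126 genes higher and 143 lower, against 222 and 287. In the values as deposited, the median of all genes was 0.13 against 0.02, and 70.3% of calls were rises against 43.6%. All 509 calls over all genes became 43 with averaged pools and 1030 with the array set as a block. Pools 1 and 2 of a genotype may not be independent, and signals near the top (Tuba1a) or near the filter (the second Tubb6 probe set) limit what could be seen.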
